A study of Mus musculus with 16 samples.

Results

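Transcripts of 9 genes of the tricarboxylic acid (TCA) cycle and of pyruvate entry into it were followed through the activation of mouse CD8+ T cells in culture. The genes were chosen by name from the deposited matrix of gene counts, and all 9 of 9 symbols were found among its 34573. Cs, Idh2, Idh3a, Ogdh, Sucla2, Fh1 and Mdh2 encode enzymes of the cycle or subunits of them. Pdha1 encodes the catalytic alpha subunit of pyruvate dehydrogenase, and Pdk1 encodes a kinase that inhibits that enzyme.

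The cells came from the spleens of C57BL/6 mice, with no genetic change named, and were purified as naive CD8+ T cells. Tn, the unstimulated state, was sorted at day 0 and gated as CD8+ CD44- CD62L+. The other 3 states were stimulated with anti-CD3e and anti-CD28, each at 10 µg/ml, antibodies that trigger the T cell receptor and its co-stimulator CD28, and received IL-2 at 300 U/ml after the first night. The sort took CD8+ PD-1+ TIM-3- cells at day 2 for Teff1 and at day 5 for Teff2, and CD8+ PD-1+ TIM-3+ cells at day 5 for Tex. Both surface proteins are inhibitory receptors of T cells. Each state had 3 RNA libraries from 0.2 M cells each, and the labels do not say whether replicates were separate mice or cultures. The p-values therefore cover the spread between these libraries alone, which may be technical. All activated cells were grown in culture, and no cells from an infected or tumour-bearing animal were included.

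Pyruvate made by glycolysis is carried into mitochondria, where the pyruvate dehydrogenase complex turns it into acetyl-CoA. Pyruvate dehydrogenase kinases phosphorylate the alpha subunit and switch the complex off, and pyruvate is then left for lactate. Citrate synthase joins acetyl-CoA to oxaloacetate, and the cycle oxidises the product back to oxaloacetate while passing electrons to the respiratory chain. Naive T cells are known for a quiet, mainly oxidative metabolism, and activated T cells for high glycolysis and growth of their mitochondria.

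The genes lie on 9 chromosomes of the mouse assembly GRCm38.p6, and all are annotated as protein-coding. Cs is on chromosome 10 (128337727 to 128362482), Idh2 on chromosome 7 (80094845 to 80118608) and Idh3a on chromosome 9 (54586511 to 54604662). Ogdh is on chromosome 11 (6291597 to 6359094), Sucla2 on chromosome 14 (73552786 to 73596144) and Fh1 on chromosome 1 (175601378 to 175625635). Mdh2 is on chromosome 5 (135778649 to 135790386), Pdk1 on chromosome 2 (71873215 to 71903858) and Pdha1 on chromosome X (160122219 to 160138430).

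The RefSeq promoter table of that assembly, which spans 250 bases before to 50 after each listed start, had entries for 8 of the 9 genes, 14 windows in all. The 250 bases before the first listed start are shown for Mdh2, which rose in all 3 activated states, for Pdk1, which fell at day 5, and for Ogdh, which passed no test. Capitals mark the ACGTG core of the hypoxia response element, here on the reverse strand. The windows are chr5:135778399-135778648, chr2:71872974-71873223 and chr11:6291347-6291596 in that order, all on the plus strand.
Mdh2: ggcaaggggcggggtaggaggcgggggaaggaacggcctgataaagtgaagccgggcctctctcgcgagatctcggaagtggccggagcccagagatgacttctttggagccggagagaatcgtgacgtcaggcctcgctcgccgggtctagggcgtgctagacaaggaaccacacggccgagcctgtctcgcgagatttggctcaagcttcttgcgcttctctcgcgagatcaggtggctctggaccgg
Pdk1: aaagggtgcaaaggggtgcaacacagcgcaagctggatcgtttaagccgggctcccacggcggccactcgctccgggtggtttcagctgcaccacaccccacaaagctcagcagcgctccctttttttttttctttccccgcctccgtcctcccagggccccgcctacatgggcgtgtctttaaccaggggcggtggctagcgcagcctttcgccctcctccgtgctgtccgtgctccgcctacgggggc
Ogdh: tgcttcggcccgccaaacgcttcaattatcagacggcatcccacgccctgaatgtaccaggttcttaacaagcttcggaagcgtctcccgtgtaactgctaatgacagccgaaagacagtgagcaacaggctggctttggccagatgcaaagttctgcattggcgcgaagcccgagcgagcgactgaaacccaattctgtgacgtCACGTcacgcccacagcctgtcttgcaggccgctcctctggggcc
The letters CACGTG (E-box), ACGTG (the response element core, also found inside CACGTG), the NRF1 consensus and AAGGTCA (an ERR site) were searched on both strands of the whole windows. Of all 32851 windows in the table, 7.15%, 19.6%, 0.971% and 4.72% held them in that order. Among the 14 windows of the 8 genes, those of Ogdh alone held any: 6 held ACGTG, 3 of these CACGTG and 1 AAGGTCA. These windows overlap, so the 6 hold 3 distinct ACGTG sites, of which 2 are CACGTG, and the counts of windows are not independent.

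The 12 libraries held 14.7 to 21.2 M counts, and the group means (SD, n = 3 each) were 15.7 ± 1.66 M for Tn, 19.7 ± 2.10 M for Teff1, 17.9 ± 1.51 M for Teff2 and 19.0 ± 0.924 M for Tex. The 9 genes had 467 to 7899 counts in each library, so none was near the limit of detection. Levels are counts per M counts (CPM) with TMM-scaled library totals, and are compared between states for one gene, not between genes. All 5 CD8 T cell markers (Cd8a, Cd8b1, Cd3d, Cd3e, Cd3g) were present in every state, at a summed 1805 to 3985 CPM. The Tn libraries also held markers of other spleen cells, unevenly. The 4 B cell markers summed to 371, 33.4 and 765 CPM in Tn replicates 1, 2 and 3 and to at most 8.55 CPM in any activated library. The 4 MHC class II genes summed to 1343, 112 and 2028 CPM in Tn, and 6 macrophage and monocyte markers to 247, 59.7 and 125 CPM, against at most 121 and 1.33 CPM in the activated libraries. C1qa, C1qb, C1qc and Marco, of the last list, were at 0 in all Teff2 libraries. NK cell markers summed to 2.45 to 99.3 CPM in Tn, erythroid markers to 37.6 to 83.7, platelet markers to 8.92 to 37.7, neutrophil markers to 1.09 to 5.59 and CD4 and regulatory T cell markers to 5.31 to 44.7 CPM. The highest activated libraries had 9.17, 3.21, 6.7, 0.129 and 9.9 CPM in that order. The part of other cells in the levels of the 9 genes was not tested, apart from leaving out naive libraries. In bulk RNA, fewer cells of a type and less RNA per cell cannot be told apart.

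Against naive cells, genes of the cycle mostly rose and the kinase gene Pdk1 fell at day 5. In Teff1, 6 of the 9 genes rose and none fell at a Benjamini-Hochberg adjusted p under 0.05 in edgeR's quasi-likelihood test, where 48.9% of the 14332 genes tested were called and 24.5% were called higher. In Teff2, 4 rose and 1 fell, with 48.9% of all genes called, 25.6% higher and 23.3% lower. In Tex, 6 rose and 2 fell, with 52.9% of all genes called, 27.3% higher and 25.6% lower. Shares of 4 and 6 in 9 higher stand above these backgrounds, and a share of 1 or 2 in 9 lower does not. The median log2 fold change of the 9 genes was 0.70 for Teff1, 0.68 for Teff2 and 0.73 for Tex, and that of all genes tested was -0.06, 0.00 and 0.00. In Teff1, Teff2 and Tex, 7, 6 and 8 of the 9 genes had no overlap with the Tn libraries. The same held for 8805, 8509 and 9077 of the 14332 genes tested, so separation from Tn was common. These 3 comparisons share the Tn libraries. The plot of fold changes sets the 3 states side by side for each gene.

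**Figure D1:**
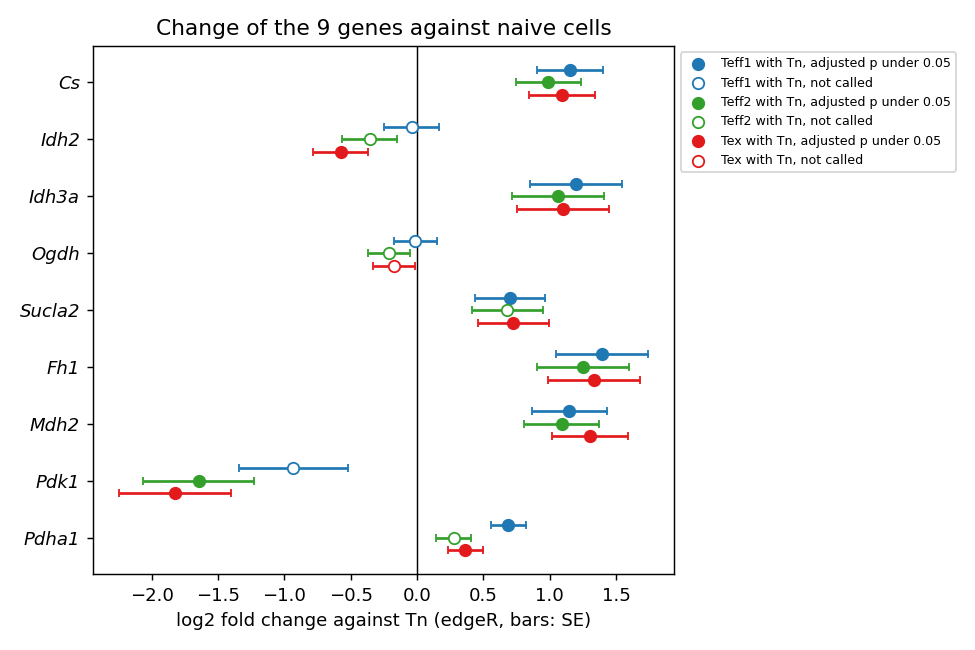
Log2 fold change of each of the 9 genes against Tn in Teff1 (blue), Teff2 (green) and Tex (red), with the SE of the edgeR fit, filled where the adjusted p was under 0.05. Cs, Idh3a, Fh1 and Mdh2 lie to the right of 0 and filled in all 3 comparisons, while Pdk1 lies to the left, from -0.93 in Teff1 to -1.83 in Tex.

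For pyruvate entry, only transcripts of the enzyme and of its kinase were read. Pdha1 had 93.3, 102 and 95.8 CPM in Tn replicates 1 to 3, 146, 159 and 164 CPM in Teff1, 113, 114 and 125 CPM in Teff2 and 129, 109 and 138 CPM in Tex. Its Teff1 libraries were all above those of the other states, its Tn libraries were all below them, and Teff2 and Tex overlapped. Pdha1 rose 1.61-fold in Teff1 (log2 fold change 0.69 ± 0.13, SE; adjusted p = 1.32e-03 in edgeR's test). In Tex it rose 1.29-fold (0.37 ± 0.13; edgeR adjusted p = 0.0340), and in Teff2 the log2 fold change was 0.28 ± 0.13 with an edgeR adjusted p of 0.102. The Tex call ended when any single Tn library or Tex replicate 1 or 3 was left out, with log2 fold changes of 0.30 to 0.39 and adjusted p of 0.0608 to 0.116 in edgeR. It also ended under a replicate block (0.36, edgeR adjusted p = 0.0954), under upper-quartile scaling (0.25, adjusted p = 0.132), with either other filter and when these 2 states were fitted alone.

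Pdk1 encodes the pyruvate dehydrogenase kinase known as a target of hypoxia-inducible factor. It had 307, 393 and 334 CPM in Tn, 135, 208 and 198 CPM in Teff1, 74.6, 166 and 89.6 CPM in Teff2 and 43.4, 162 and 86.5 CPM in Tex. Every activated library was below every Tn library, and the 3 activated states overlapped one another. Pdk1 fell 3.13-fold in Teff2 (log2 fold change -1.65 ± 0.42; edgeR adjusted p = 6.76e-03) and 3.54-fold in Tex (-1.83 ± 0.42; edgeR adjusted p = 3.50e-03). In Teff1 the log2 fold change was -0.93 ± 0.41, with an edgeR adjusted p of 0.0789. There Pdk1 passed the threshold when the 6 libraries of these states were fitted alone (-0.89, edgeR adjusted p = 5.81e-03), in a replicate block (-0.91, edgeR adjusted p = 4.10e-03), and without Tex replicate 1 (-0.92, adjusted p = 0.0314) or Tex replicate 2 (-0.92, adjusted p = 0.0390). At day 5, replicate 2 stood highest and replicate 1 lowest in both Teff2 and Tex.

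The log2 ratio of Pdk1 to Pdha1 counts within a library does not depend on scaling, and is read only between libraries because levels of different transcripts depend on their length. The libraries of Tn had 1.72, 1.94 and 1.80, and the ratio was -0.11, 0.38 and 0.28 in Teff1, -0.60, 0.54 and -0.48 in Teff2 and -1.57, 0.57 and -0.67 in Tex. All 9 activated libraries lay below the 3 Tn libraries. The mean differences from Tn were -1.64 for Teff1, -2.0 for Teff2 and -2.38 for Tex, each with an exact two-sided permutation p of 0.10, the smallest that 3 against 3 allows, and 0.20 after adjustment over 6 comparisons. Among the activated states the ratio overlapped, with exact permutation p between 0.40 and 0.60. Its SD was 0.11 over the Tn libraries, 0.26 over Teff1, 0.63 over Teff2 and 1.07 over Tex.

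Of the other kinases of the complex, Pdk3 rose in all 3 activated states. Pdk2 had log2 fold changes below 0 but passed no test in the fit of all 12 libraries. Pdk3 had 18.5, 23.8 and 16.4 CPM in Tn, then 52.8, 60.2 and 73.8 CPM at day 2, with 29.8, 72 and 63.2 CPM in Teff2 and 35, 71.8 and 54.4 CPM in Tex. Every activated library was above every Tn library. Pdk3 rose 3.18-fold in Teff1, 2.81-fold in Teff2 and 2.74-fold in Tex, with edgeR adjusted p of 1.76e-03, 3.31e-03 and 3.34e-03. Pdk2 had 12.5, 17.5 and 13.6 CPM in the naive libraries, with 8.23, 2.71 and 2.36 CPM in Teff1, 14.7, 2.77 and 5.21 CPM in Teff2 and 10.2, 2.59 and 3.64 CPM in Tex. In each activated state Pdk2 was highest in replicate 1, and that of Teff2 lay within the Tn range. All Teff1 and Tex libraries lay below Tn for Pdk2. Its log2 fold change from Tn was -1.71 ± 0.68 at day 2 (edgeR adjusted p = 0.0554). At day 5 it was -0.94 ± 0.67 for Teff2 (edgeR adjusted p = 0.263) and -1.41 ± 0.67 for Tex (edgeR adjusted p = 0.0965). Pdk4 was too low to be tested, at no more than 0.204 CPM in any library. The log2 ratio of Pdk1 to Pdk3 counts, chosen after its values were seen and given as a description, averaged 4.15 ± 0.17 for Tn, 1.52 ± 0.23 for Teff1, 1.01 ± 0.44 for Teff2 and 0.72 ± 0.43 for Tex (SD, n = 3 each).

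**Figure D2:**
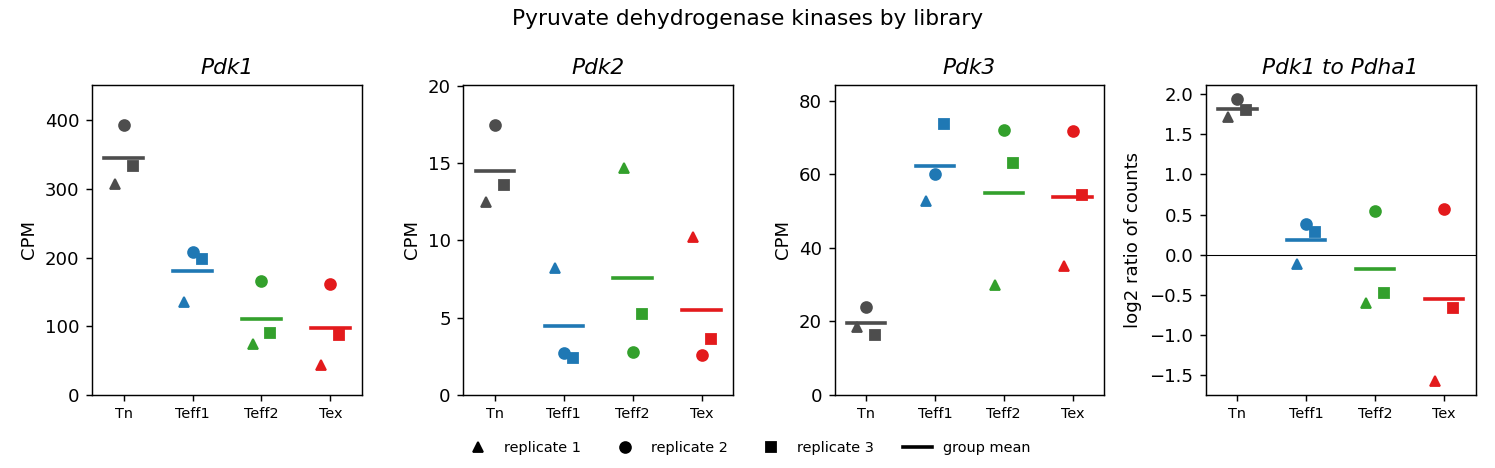
CPM of Pdk1, Pdk2 and Pdk3 in each library, and the log2 ratio of Pdk1 to Pdha1 counts, by state, with replicates by symbol and the group mean as a line. Pdk1 is high in Tn and Pdk3 is low there, Pdk2 splits by replicate in the activated states, and the ratio is 1.72 to 1.94 in Tn and at most 0.57 in the other libraries.

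Citrate synthase, encoded by Cs, makes the first step of the cycle. Cs had 141, 172 and 149 CPM in Tn, 274, 361 and 394 CPM in Teff1, 200, 368 and 350 CPM in Teff2 and 249, 356 and 382 CPM in Tex. The Tn libraries were below all others, and the activated states overlapped, with replicate 1 lowest in each. Cs rose 2.23-fold in Teff1 (log2 fold change 1.16 ± 0.25; edgeR adjusted p = 2.66e-03), 1.99-fold in Teff2 (0.99 ± 0.25; edgeR adjusted p = 6.12e-03) and 2.14-fold in Tex (1.10 ± 0.25; edgeR adjusted p = 3.13e-03). These calls held without any single library, with adjusted p of at most 0.0280 in edgeR.

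Isocitrate is oxidised in mitochondria by NAD-dependent isocitrate dehydrogenase, whose catalytic subunit Idh3a encodes, and by the NADP-dependent enzyme of Idh2. Idh3a had 46.9, 60 and 51.8 CPM in Tn, 68.7, 120 and 175 CPM in Teff1, 69.3, 141 and 122 CPM in Teff2 and 76.7, 138 and 125 CPM in Tex. Its activated libraries were all above Tn, with replicate 1 nearest to it. Idh3a rose 2.29-fold in Teff1, 2.09-fold in Teff2 and 2.14-fold in Tex, with log2 fold changes of 1.20 ± 0.35, 1.06 ± 0.35 and 1.10 ± 0.35 and edgeR adjusted p of 0.0136, 0.0236 and 0.0189. The Teff1 call ended without Tn replicate 1 (1.12, edgeR adjusted p = 0.0513) or Teff1 replicate 3 (0.85, edgeR adjusted p = 0.0695). The day 5 calls each ended without Tn replicate 1 or 3 or without replicate 2 or 3 of the activated state, with log2 fold changes of 0.92 to 1.09 and adjusted p of 0.0515 to 0.0783.

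Idh2 had 43.4, 64.7 and 55.6 CPM in Tn, 42.1, 50.9 and 66.2 CPM in Teff1, 48.4, 38.3 and 41.1 CPM in Teff2 and 31.3, 38.5 and 40 CPM in Tex. The Tn and Teff1 ranges largely overlapped, and only the Tex libraries were all below Tn. Idh2 fell 1.49-fold in Tex (log2 fold change -0.58 ± 0.21; edgeR adjusted p = 0.0335), and its log2 fold changes were -0.04 ± 0.21 in Teff1 and -0.36 ± 0.21 in Teff2, with edgeR adjusted p of 0.883 and 0.170. The Tex call ended without a filter on low counts (-0.52, adjusted p = 0.0777) and without any 1 of 7 libraries: Tn replicates 2 and 3, all 3 Tex replicates, Teff1 replicate 2 or Teff2 replicate 2. Leaving out each of these libraries alone gave a log2 fold change of -0.45 to -0.63, with adjusted p of 0.0510 to 0.125. The log2 ratio of Idh3a to Idh2 counts, chosen after its values were seen and given as a description, averaged -0.03 ± 0.13 for Tn, 1.12 ± 0.36 for Teff1, 1.32 ± 0.71 for Teff2 and 1.59 ± 0.28 for Tex (SD, n = 3 each).

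Ogdh encodes the first subunit of the 2-oxoglutarate dehydrogenase complex, a relative of pyruvate dehydrogenase. It had 209, 256 and 206 CPM in Tn, 196, 219 and 248 CPM in Teff1, 172, 224 and 183 CPM in Teff2 and 178, 218 and 198 CPM in Tex. Every state overlapped every other. The log2 fold change from Tn was -0.01 ± 0.16 at day 2, -0.21 ± 0.16 in Teff2 and -0.17 ± 0.16 in Tex, with edgeR adjusted p of 0.948, 0.298 and 0.381. The value in Teff1 is near 0 and took either sign under other settings.

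Sucla2 encodes the ADP-forming beta subunit of succinyl-CoA synthetase. It had 31.6, 36.7 and 30.5 CPM in Tn, 42, 55.9 and 62.9 CPM in Teff1, 33.9, 61.2 and 63.3 CPM in Teff2 and 38.3, 62.8 and 62.4 CPM in Tex. Replicate 1 of Teff2 lay within the Tn range, and the other activated libraries lay above it. Sucla2 rose 1.63-fold in Teff1 (log2 fold change 0.70 ± 0.27; edgeR adjusted p = 0.0452) and 1.66-fold in Tex (0.73 ± 0.27; edgeR adjusted p = 0.0367), and had 0.68 ± 0.27 and an edgeR adjusted p of 0.0512 in Teff2. Leaving out any single Tn library, or replicate 2 or 3 of the activated state, ended the Teff1 and Tex calls, as did upper-quartile scaling and limma on the deposited values. Without single libraries these calls were lost with log2 fold changes of 0.59 to 0.80 and adjusted p of 0.0542 to 0.139. The filter at 1 CPM in 3 libraries also ended the Teff1 call (0.655, edgeR adjusted p = 0.0554). In Teff2, leaving out replicate 1 of Teff1 (0.69, adjusted p = 0.0440), Teff2 (0.93, adjusted p = 7.12e-03) or Tex (0.69, adjusted p = 0.0307) took Sucla2 past the threshold in edgeR.

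Fumarase, encoded by Fh1, and mitochondrial malate dehydrogenase, encoded by Mdh2, make the last steps before oxaloacetate. Fh1 had 31, 34.7 and 40 CPM in Tn, 56.7, 95.5 and 126 CPM in Teff1, 52.4, 113 and 86.8 CPM in Teff2 and 59.9, 121 and 85.6 CPM in Tex. Fh1 rose 2.63-fold in Teff1, 2.38-fold in Teff2 and 2.52-fold in Tex, with log2 fold changes of 1.40 ± 0.35, 1.25 ± 0.35 and 1.33 ± 0.35 and edgeR adjusted p of 5.98e-03, 1.04e-02 and 6.70e-03. These log2 fold changes were the highest among the 9 genes in each of the 3 comparisons. Mdh2 had 125, 159 and 141 CPM in Tn, 203, 310 and 429 CPM in Teff1, 214, 364 and 328 CPM in Teff2 and 263, 427 and 363 CPM in Tex. Mdh2 rose 2.21-fold in Teff1, 2.13-fold in Teff2 and 2.48-fold in Tex, with log2 fold changes of 1.15 ± 0.28, 1.09 ± 0.28 and 1.31 ± 0.29 and edgeR adjusted p of 6.01e-03, 7.75e-03 and 2.54e-03. For both genes the Tn libraries lay below all others, replicate 1 was lowest in each activated state, and the calls held without any single library.

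**Figure D3:**
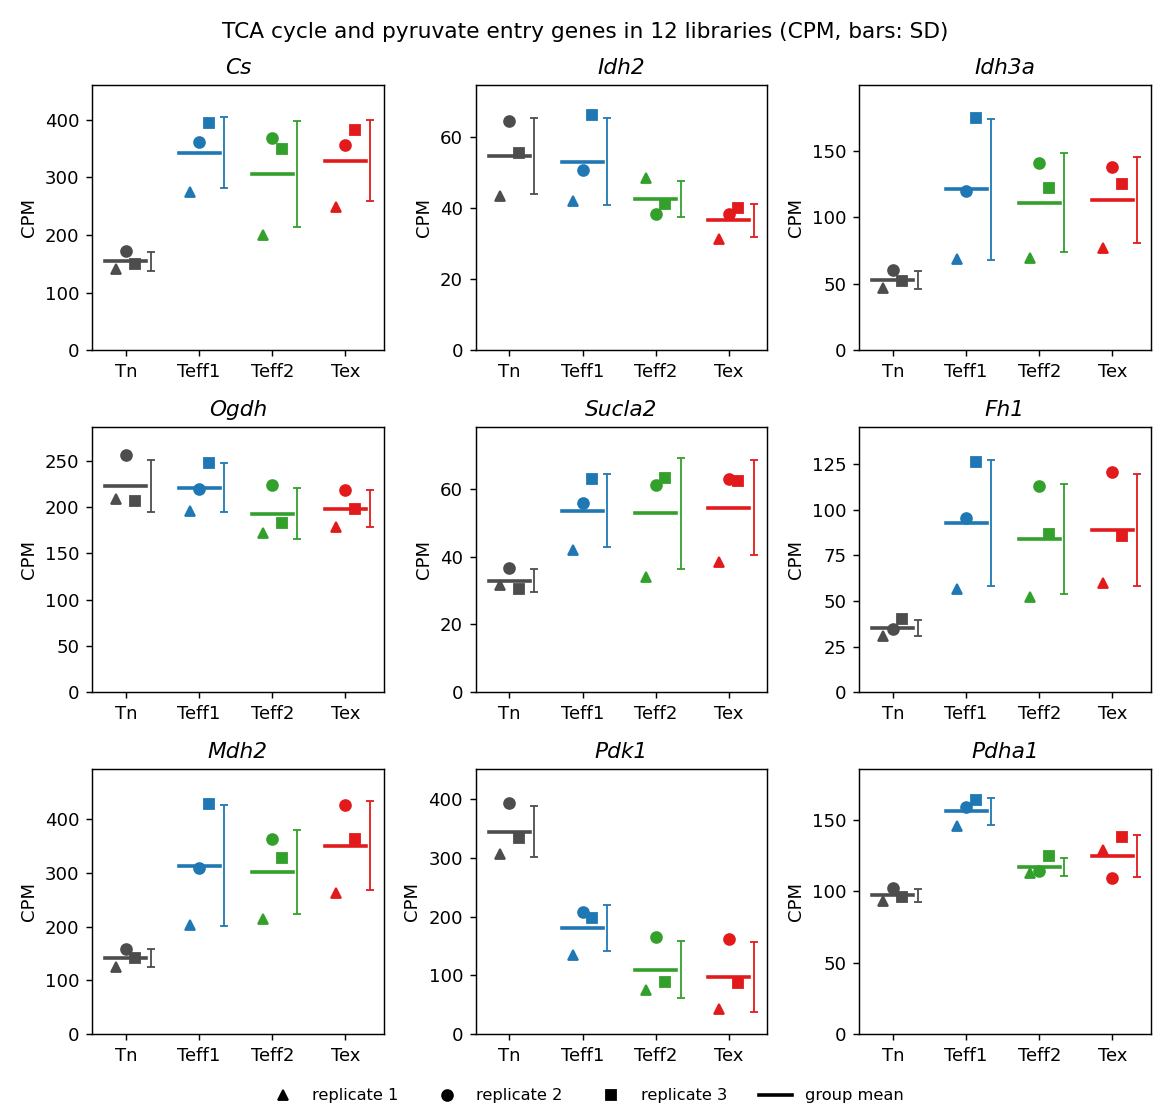
CPM of the 9 genes in each of the 12 libraries by state, with a panel and a CPM axis from 0 for each gene, replicates by symbol, group means as lines and SD as bars. Cs, Idh3a, Fh1 and Mdh2 have all activated libraries above Tn, Pdk1 has all of them below, and replicate 1 (triangles) is the lowest library of Cs, Idh3a, Sucla2, Fh1 and Mdh2 in all 3 activated states.

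The calls were fewer when Tn replicate 2, the naive library with the lowest B cell, MHC class II and NK cell marker sums, was the only naive library kept. Then 0 of the 9 genes were called in Teff1 and 1 at day 5 in each of Teff2 and Tex, which was Pdk1 (log2 fold change -1.85 and -2.03). Calls over the whole table fell too, to 3015, 3334 and 3944 genes, against 7012, 7010 and 7584 with all libraries. The log2 fold changes of the genes that had risen stayed above 0: Cs had 0.98, 0.81 and 0.92 in Teff1, Teff2 and Tex, Fh1 1.40, 1.26 and 1.34, and Mdh2 0.97, 0.92 and 1.13. With 1 naive library, its spread is assumed to equal that of the other states.

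A list of 44 other genes of the pathway was read in the same fit, and 41 were tested, Pdk4, Me1 and Me3 being too low. Against Tn, 20 rose and none fell in Teff1, 22 rose and none fell in Teff2, and 22 rose and 1 fell in Tex. The called shares are near the 48.9%, 48.9% and 52.9% of all genes called, and the higher calls lie above the 24.5%, 25.6% and 27.3% of all genes called higher. In 11 of the 22 alternatives for Teff1 and 3 of the 22 for Teff2, 1 or 2 of the list were called lower. The median log2 fold change of the 41 was 0.57, 0.66 and 0.63. Around the pyruvate dehydrogenase complex, 4 of 7 genes rose in each state. They were Dlat, Dld, Pdhx and Pcx. Dlat and Dld encode catalytic subunits of the complex, Pdhx a binding protein of it, and Pcx pyruvate carboxylase. Pdhb encodes a further catalytic subunit and passed no test. Its log2 fold change from Tn was 0.29 for Teff1, 0.23 for Teff2 and 0.34 for Tex (edgeR adjusted p = 0.183, 0.294 and 0.122). The call of Pdhx in Teff2 was lost in 10 of the alternatives. Dlat rose 2.13-fold, 1.99-fold and 2.31-fold in Teff1, Teff2 and Tex. Pcx had 3.12, 4.29 and 4.30 CPM in Tn, 11.7, 24.2 and 15 CPM in Teff1, 14.2, 64.7 and 30.6 CPM in Teff2 and 21.8, 78.2 and 44.8 CPM in Tex. It rose 4.34-fold, 9.31-fold and 12.3-fold, and its activated libraries were all above Tn. Mpc1, a subunit of the mitochondrial pyruvate carrier, passed no test (log2 fold change -0.61 ± 0.35 in Teff1).

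Among 12 other genes of the cycle enzymes, 7 rose in Teff1, 6 in Teff2 and 6 in Tex, and none fell, where 24.5%, 25.6% and 27.3% of all genes were called higher. Sdhb, Sdhc and Sdhd, subunits of succinate dehydrogenase, rose in each state, and Sdhd rose 2.47-fold, 2.39-fold and 2.55-fold. Sdha, the flavoprotein subunit of the same enzyme, had log2 fold changes of 0.31 ± 0.16, 0.03 ± 0.16 and 0.03 ± 0.16 and passed no test. Among the 5 kinases and phosphatases tested, 1 rose in Teff1, 2 rose in Teff2, and 2 rose and 1 fell in Tex. Of all genes, 24.5% were called higher in Teff1 and 25.6% lower in Tex, so 1 of 5 is not above the background there. The gene that fell was Pdpr, a regulatory subunit of pyruvate dehydrogenase phosphatase (log2 fold change -0.59 ± 0.22; edgeR adjusted p = 0.0387), and its call was lost in 12 of the alternatives.

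Of the 9 shuttle and glutamine genes, 5 rose in Teff1, 6 in Teff2 and 6 in Tex, where 24.5%, 25.6% and 27.3% of all genes were called higher. Slc25a13, an aspartate-glutamate carrier of the malate-aspartate shuttle, had 2.05, 3.06 and 2.63 CPM in Tn and 11 to 38.6 CPM in the activated libraries, and rose 9.63-fold, 8.46-fold and 7.92-fold. Got1, the cytosolic aspartate aminotransferase of that shuttle, rose 5.46-fold in Teff1 (edgeR adjusted p = 4.06e-05). Gls2, a glutaminase, had 0.994, 0.136 and 0.322 CPM in Tn and 5.85 to 18 CPM in the activated libraries, with fitted rises of 15.2-fold, 21.5-fold and 27.6-fold. Tn counts of Gls2 are low and highest in replicate 1, so these folds rest on few counts. Of the 6 cytosolic and citrate-using genes tested, 2, 2 and 3 rose, where 24.5%, 25.6% and 27.3% of all genes were called higher, so the first 2 counts lie near the background. Of the lactate dehydrogenases, Ldha, which makes lactate, had 322, 398 and 348 CPM in Tn and 1033 to 3636 CPM in the activated libraries, and rose 6.01-fold, 5.75-fold and 6.31-fold. Ldhb rose 1.77-fold in Teff2 (edgeR adjusted p = 0.0408), a call that was lost in 9 of the alternatives.

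**Figure D4:**
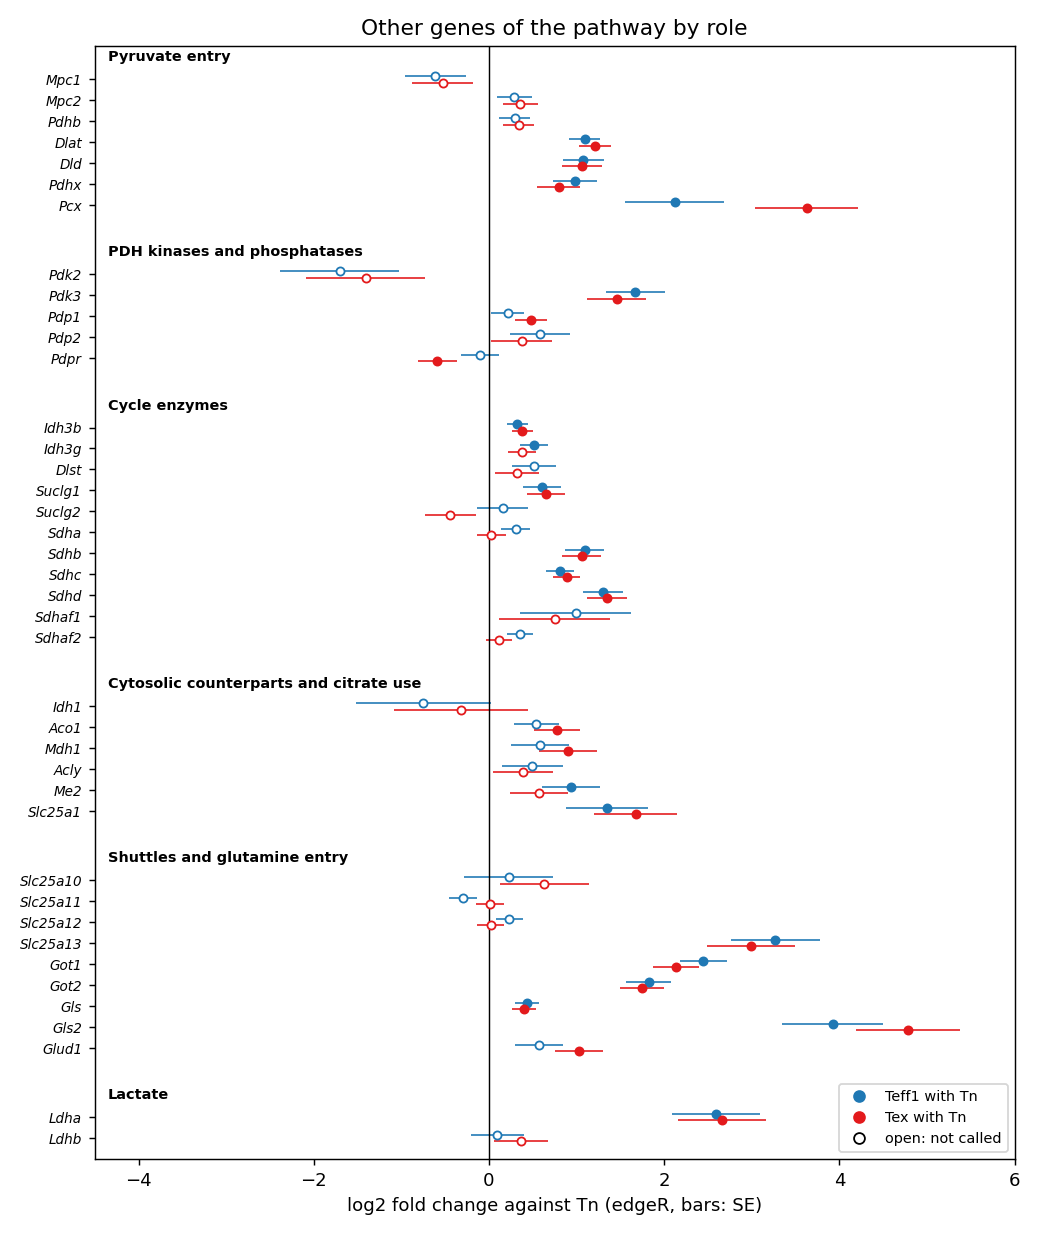
Log2 fold change with SE of 40 of the 41 tested other genes of the pathway in Teff1 (blue) and Tex (red) against Tn, grouped by role, filled where the adjusted p was under 0.05. Filled points lie to the right of 0 except Pdpr in Tex at -0.59, and Gls2, Pcx, Slc25a13 and Ldha lie farthest right in Tex.

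Among the activated states, none of the 9 genes passed the test. Teff2 with Teff1 had 0 of 9 called, where 0.670% of all genes were called, and the log2 differences ran from -0.71 for Pdk1 to -0.02 for Sucla2. Tex with Teff1 had 0 of 9, where 3.01% of all genes were called, with differences from -0.89 for Pdk1 to 0.16 for Mdh2. Tex with Teff2, both of day 5 and differing in TIM-3 by the sort, had 0 of 9, where 0.00698% of all genes were called, with differences from -0.22 for Idh2 to 0.22 for Mdh2. The SE was 0.13 to 0.41 in these edgeR fits. At an unadjusted p under 0.05, edgeR gave 1 gene (Pdha1) in Teff2 with Teff1, 2 (Idh2 and Pdha1) in Tex with Teff1 and none in Tex with Teff2. DESeq2 called Pdha1 lower in Teff2 than in Teff1 (log2 difference -0.43, adjusted p = 0.0440), and Pdha1 in Teff1 did not overlap Teff2. Between these 2 states, 2090 of the 14332 genes tested did not overlap. None of the 41 other genes was called in any of these 3 comparisons.

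Equal replicate numbers of Tex and Teff2 deviated together, so these libraries were also compared in pairs. With the replicate as a block on the 6 libraries of these states, 221 genes were called over the whole table, against 0 in the same fit without the block and 1 in the fit of all 12 libraries, and none of the 9 genes was among them. Within pairs, the Tex minus Teff2 differences in log2 CPM for Mdh2 were 0.30, 0.23 and 0.15 in replicates 1 to 3, and those for Pdk1 were -0.78, -0.04 and -0.05. These 2 genes were the ones of the 9 with the same sign in all 3 pairs. The Pdk1 difference between the states lay mainly in replicate 1.

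Replicate 1 of the activated states stood lower than replicates 2 and 3 for most of the 9 genes. Against the mean of replicates 2 and 3 in log2 CPM, 9 of 9 genes were below 0 in Teff1, 8 in Teff2 and 8 in Tex, where 47.6%, 48.6% and 49.0% of all genes were. A deviation of -0.5 or less was found for 4, 6 and 6 of the 9 genes, and for 15%, 19.3% and 17.6% of all genes. In Tn, 9 of 9 were also below 0, where 50.3% of all genes were. None of the 9 reached -0.5 there, where 7.1% of all genes did. Idh3a deviated by -1.07, -0.91 and -0.77 in Teff1, Teff2 and Tex, and Fh1 by -0.95, -0.91 and -0.76. Pdk1 deviated by -0.58, -0.71 and -1.44. Pdha1 stayed within 0.14 of 0, at -0.14, -0.07 and 0.07, and Ogdh was at -0.25, -0.24 and -0.22.

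Markers of dividing cells and of CD4 and regulatory T cells also differed in replicate 1. The sum of the 8 markers of dividing cells was 842 CPM in Teff2 replicate 1 and 1004 CPM in Tex replicate 1, against 2891 to 3350 CPM in the other day 5 libraries, and 3252, 2560 and 2762 CPM in Teff1. The median deviation of the dividing-cell markers was -0.24 for Teff1, -2.46 for Teff2 and -1.89 for Tex. In Teff1 the sum was highest in replicate 1 although the median deviation was below 0, and Idh3a, Fh1 and Mdh2 were low there. The CD4 and regulatory T cell markers Cd4 and Foxp3 summed to 9.9 CPM in Teff1 replicate 1 against 2.42 and 3.03 CPM in the other Teff1 libraries, to 5.05 against 0.71 and 1.34 CPM in Teff2, and to 6.92 against 0.648 and 1.51 CPM in Tex. Their median deviation was 1.55, 1.57 and 1.80 in these states, and 1.19 in Tn. The part of dividing cells or of CD4 T cells in the levels of replicate 1 was not tested. Without replicate 1 of all 3 activated states, 6 of the 9 genes were called in Teff1, 7 in Teff2 and 7 in Tex against Tn, and 30, 30 and 31 of the pathway list. With all libraries, 6, 5 and 8 of the 9 genes were called, so their count rose in Teff2 alone and fell in Tex. The pathway list had more calls without these replicates in each comparison. Calls over the whole table without them were 8326, 8492 and 9057 genes, against 7012, 7010 and 7584 with all libraries.

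**Figure D5:**
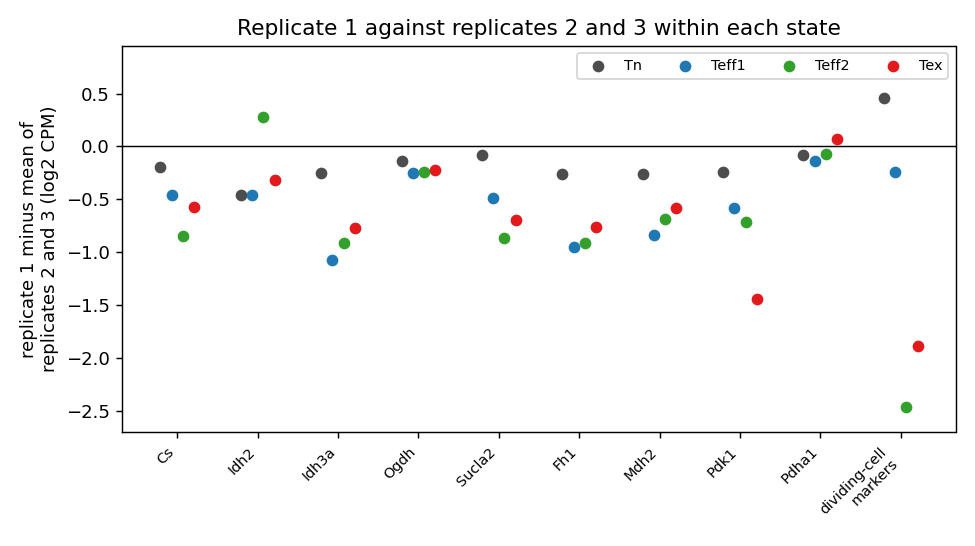
Difference in log2 CPM between replicate 1 and the mean of replicates 2 and 3, for each of the 9 genes and for the median of 8 dividing-cell markers, by state. The genes lie mostly below 0 in the activated states, down to -1.44 for Pdk1 in Tex, and the markers reach -2.46 in Teff2.

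Over the 12 libraries, Cs, Idh3a, Sucla2, Fh1 and Mdh2 followed one another, with Pearson correlations of log2 CPM between 0.93 and 0.98. Over the 9 activated libraries alone these ran from 0.85 to 0.97. Both are descriptions, since the libraries share their states and the low replicate 1. Pdha1 correlated with Cs at 0.74 over the 12 libraries and at 0.32 over the activated ones. Pdk1 correlated at 0.77 with Ogdh and at 0.69 with Idh2, and below 0 with the other 6 genes over the 12 libraries. Over the 9 activated libraries alone its correlations with those 6 were above 0, from 0.35 (Pdha1) to 0.70 (Fh1).

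The 3 genes most alike to each of the 9 were read by the same correlation over 12 libraries, out of 12332 named genes. For Cs they were Mad2l2 (0.990), Atp5b (0.989), the beta subunit of mitochondrial ATP synthase, and Ints10 (0.986). For Idh3a they were Mrpl19 (0.991), a mitochondrial ribosomal protein, Psma3 (0.991), a proteasome subunit, and Suclg1 (0.988), the alpha subunit of succinyl-CoA synthetase. For Fh1 they were Ruvbl1 (0.989), Tkt (0.989), the transketolase of the pentose phosphate pathway, and Galk1 (0.988). For Mdh2 they were Mrpl17 (0.990), Hars (0.989), a histidyl-tRNA synthetase, and Psmb3 (0.988). For Sucla2 they were Stard4 (0.986), Ndufa9 (0.985), a subunit of complex I, and Copb2 (0.983).

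The genes outside that cluster had other neighbours. For Pdk1 these were Fam116a (0.968), Slc14a1 (0.956) and Pydc3 (0.952), and for Ogdh Fto (0.962), Pak2 (0.937) and Csrp2bp (0.928). For Pdha1 they were Tyw1 (0.930), Ipmk (0.929) and Ppip5k2 (0.919), and for Idh2 Celsr2 (0.854), Yeats2 (0.849) and Fam26f (0.841). Idh2 had the lowest best correlation of the 9.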

How the data were processed

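RNA-seq counts were read from the authors' deposited matrix of raw counts, whole numbers for 34573 gene symbols in 12 libraries, of which 11535 were at 0 throughout. The authors' normalized values, in another deposited matrix, are on what reads as a log2 scale (-1.99 to 17.7, 21574 genes). Their transformation is not given in the sources used here, and they served as an alternative. Per the submitters' processing notes, the genome build was mm10 and the tools included HISAT2, HTSeq and DESeq2, without versions. Strand use in counting is not given there, so overlapping and antisense transcripts and close copies cannot be told apart. The 4 Hi-C samples were not analysed here.

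Counts were tested with edgeR 4.0.16 in R 4.3.3 (quasi-likelihood F test, TMM factors, edgeR's filter by expression, 14332 genes tested, group as the term, all 12 libraries), with Benjamini-Hochberg adjustment over all genes tested and a call at an adjusted p under 0.05. The method was tested on simulated counts, drawn independently for each library with changes set in Teff1 alone. That test does not cover libraries that deviate together, as those of Tex and Teff2 did. The SE was taken from the fold change and its F value. Deviations and correlations used log2 CPM with 0.5 CPM added. Symbols, positions and promoters came from RefSeq tables of GRCm38.p6.

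The 9 genes, the list of 44 other genes, the marker lists and the tests were chosen with earlier results of these data known. Named by rule were the 9 genes, in each comparison up to 4 called genes of the list with the largest change and a mean of 2 CPM or more in either group, and the 3 genes most alike to each of the 9, leaving out predicted genes and pseudogenes. Other genes of the list were named after their values were seen. The list's counts and medians cover all its tested genes, of which 1 is not reported here by name.

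Replicate numbers were taken to pair libraries where deviations from the group mean of every equal-numbered pair correlated across genes at more than 0.1. Tex with Teff2 met this (r = 0.851, 0.781 and 0.752), and the other 5 comparisons did not. Alternatives were RLE and upper-quartile scaling, DESeq2 1.42.0, no filter, a filter at 1 CPM in 3 libraries, fits of 2 groups, a replicate block, limma 3.58.1 on the deposited log2 values, and leaving libraries out.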

Additional observations from a re-analysis of the deposited data

How the results depend on the processing

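Of the counts of called genes, those that rest on the naive libraries moved most. With Tn replicate 2 as the only naive library, the 9 genes had 0, 1 and 1 calls in Teff1, Teff2 and Tex against Tn, and the pathway list had 5, 6 and 9, with fewer libraries by construction. Leaving out each library in turn gave 4 to 7 of the 9 genes in Teff1 with Tn, 4 to 6 in Teff2 with Tn and 4 to 8 in Tex with Tn. The last count was 8 with all libraries, 5 without Tn replicate 1, 5 without Tn replicate 2, 4 without Tn replicate 3, 5 without Tex replicate 2 and 4 without Tex replicate 3. The pathway list gave 14 to 23, 14 to 24 and 16 to 24 in the same 3 comparisons, the 14 of Teff2 with Tn without Tn replicate 1. Over the whole table that fit called 5951 genes in Teff2 with Tn, against 7010 with all libraries. DESeq2 called 1 of the 9 genes in Teff2 with Teff1, Pdha1.

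With the replicate number as a block, on the 2 groups compared, the 9 genes had 7 calls in Teff1 with Tn, 5 in Teff2 with Tn and 7 in Tex with Tn, and 0 in the other 3 comparisons. Under the block, 51.7%, 45.5% and 53.1% of all genes were called in these comparisons with Tn. The shares were 2.13% in Teff2 with Teff1, 1.69% in Tex with Teff2 and 5.15% in Tex with Teff1. The pathway list had 1 call under the block in Tex with Teff1, against 0. The 5 comparisons other than Tex with Teff2 did not meet the rule for pairs. Deviations of equal replicate numbers still correlated in part. For replicates 1 to 3, Teff2 with Teff1 had 0.507, 0.243 and 0.029, and Tex with Teff1 had 0.52, 0.273 and 0.03. In Tex with Teff2 the block changed no call of the 9 genes or the list.

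Values that changed sign or became 0 had passed no test. Idh2 in Teff1 with Tn was 0.062 without a filter, 0.009 with the 2 groups alone, 0.176 without the activated replicates 1, and -0.215 to 0.118 without single libraries. Ogdh there was 0.00 in DESeq2, 0.088 without a filter, 0.033 with the 2 groups alone, 0.031 in the replicate block, 0.139 without the activated replicates 1, and -0.090 to 0.084 without single libraries. Pdk1 in Tex with Teff2 ran from -0.76 to 0.27 and the ratio of Pdk1 to Pdha1 from -0.94 to 0.13. The ratio was above 0 without Tex replicate 1, and Pdk1 without that library or Teff2 replicate 2. The cause was not tested. Upper-quartile scaling moved the median of all genes by -0.14, -0.11 and -0.12 in Teff1, Teff2 and Tex against Tn, and took Pdk1 in Teff1 past the threshold (-1.07, adjusted p = 0.0399). The precision is limited by 3 libraries a state.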

Other observations

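Cytosolic isocitrate dehydrogenase, encoded by Idh1, had 9.41, 8.31 and 7.90 CPM in Tn and passed no test against it. In replicate 1 it stood at 0.809 CPM in Teff1, 1.99 CPM in Teff2 and 1.87 CPM in Tex, against 6.94 to 10.8 CPM in replicates 2 and 3 of these states. The citrate carrier gene Slc25a1 had 15.8 CPM in Teff1 replicate 1, below its 3 Tn libraries (17.2, 18.3 and 19.0 CPM), and 55.9 and 66.5 CPM in replicates 2 and 3. Pdk2 went the other way, by 1.53, 1.81 and 1.58 in log2 CPM in Teff1, Teff2 and Tex. All were picked after their values were seen.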
